A study of Mus musculus with 18 samples.

Results

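The knockout effect on gene expression was compared between 2 sets of sorted bone marrow stem cells, as the change in reserve libraries minus the change in nonreserve libraries. The knockout mice lacked DERARE, a retinoic acid response element that takes part in the control of the Hoxb genes on chromosome 11. The quantity described here, called the set difference below, is (KO Reserve minus WT Reserve) minus (KO Ctrl minus WT) on the log2(FPKM + 1) scale. It used 12 of the 18 libraries, 3 in each of 4 groups, and the 13896 of 44349 deposited genes that reached 1 FPKM in 3 or more of these 12 libraries. FPKM are fragments per kilobase of transcript scaled to the mapped fragments of the library. The groups were wild type (WT), a knockout control (KO Ctrl, with the genotype label knockout wt control), wild type reserve (WT Reserve) and the knockout reserve cells (KO Reserve, with the genotype label wild type reserve ko). The design text gives 1 gate for LT-HSC of wild-type and DERARE knockout mice, Lineage- Sca-1+ c-Kit+ CD34- Flk2- CD49b-low, and the labels give no strain, age, sex or treatment for these 4 groups and do not say what sets the reserve cells apart. The deposited column names carry the word control for WT and KO Ctrl, beside columns named wnt5a for other libraries of the series, and no such word in the reserve set. They carry the letters fl in the reserve set only, which the labels do not explain. A difference between the sets in the animals, the allele, the treatment, the sort or the preparation therefore cannot be told apart from the reserve label.

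Long-term haematopoietic stem cells (LT-HSC) are the rare marrow cells that renew themselves and give rise to all blood lineages, and most of them rest outside the cell cycle. Retinoic acid acts through nuclear receptors, the RARs paired with RXRs, which bind response elements made of repeated half-sites and recruit activators or repressors to nearby promoters. The Hoxb genes, arranged in a row and partly controlled by such elements, encode homeodomain transcription factors active in stem and progenitor cells.

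Of the genes called in opposite directions in the sets, 3 promoters are shown because their genes had clear and opposite changes: AA465934 and Cited4, higher in the reserve knockout and lower in the nonreserve knockout, and Xaf1, the reverse. Each line is the 250 bases before the RefSeq start of the gene in GRCm38.p6, on the strand of the gene, at chr11:83291449-83291698, chr4:120666313-120666562 and chr11:72301379-72301628, all on the plus strand. Capitals mark matches to the receptor half-site AGGTCA on either strand.
AA465934: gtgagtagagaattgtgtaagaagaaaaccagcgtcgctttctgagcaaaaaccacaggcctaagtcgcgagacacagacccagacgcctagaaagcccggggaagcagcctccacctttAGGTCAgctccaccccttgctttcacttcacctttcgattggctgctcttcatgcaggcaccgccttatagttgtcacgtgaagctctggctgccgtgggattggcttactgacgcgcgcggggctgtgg
Cited4: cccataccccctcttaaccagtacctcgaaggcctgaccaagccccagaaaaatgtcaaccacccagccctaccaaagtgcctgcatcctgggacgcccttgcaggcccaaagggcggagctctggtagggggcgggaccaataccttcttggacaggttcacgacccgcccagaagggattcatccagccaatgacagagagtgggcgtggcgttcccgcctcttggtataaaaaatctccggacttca
Xaf1: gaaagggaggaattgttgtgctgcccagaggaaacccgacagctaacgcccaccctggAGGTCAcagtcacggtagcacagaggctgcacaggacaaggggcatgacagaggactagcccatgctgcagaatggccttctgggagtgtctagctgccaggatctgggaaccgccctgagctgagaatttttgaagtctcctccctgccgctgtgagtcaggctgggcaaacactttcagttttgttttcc
AA465934 and Xaf1 each held 1 such half-site and Cited4 held none. RefSeq promoters were matched for 9534 of the tested genes. AGGTCA occurred in 12.9% of them, in 12.7% of the 675 matched genes with a called positive set difference, in 15.1% of the 2103 with a called negative one and in 6 of the 46 matched genes called in opposite directions. Direct repeats made of the half-site AGGTCA or a variant of it (GGGTCA as well as AGTTCA as well as GGTTCA) with a spacer of 2 bases were found in 11 of the 9534 promoters, and with a spacer of 5 bases in 4. None of either kind lay before a gene called in opposite directions. The GATA site AGATAA was present in 7.58% of all promoters, 8.44% of those with a positive call and 8.13% of those with a negative call. These matches describe letters in a window and do not show binding.

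Depth, inferred from the smallest steps between values, was such that 3 fragments of a 1 kb transcript gave 0.0723 to 0.145 FPKM. The first principal component (58.8% of the variance) separated the reserve from the nonreserve libraries, and the second (11.1%) separated WT Reserve from KO Reserve. WT Reserve replicate 2 stood apart on the third (5.25%), at 53.97 against -23.67 and -31.11 for the other WT Reserve libraries. Pearson correlations within a group ran from 0.935 to 0.968. Whether replicates are separate animals is not in the labels, and p-values therefore measure only the spread between libraries. Summed transcripts of the neutrophil, megakaryocyte, B lymphoid and erythroid lists differed between the sets. Except for the erythroid sum in the nonreserve set, these sums did not overlap between wild type and knockout inside a set. This separation was not particular to these lists. T and NK sums were 303 to 320 in WT and 213 to 265 in KO Ctrl. In the reserve set they were 1112 to 1299 in WT Reserve and 432 to 496 in KO Reserve. Some lists did overlap inside a set. Primary granule sums were 1479 to 2109 in WT Reserve and 1201 to 1644 in KO Reserve. MHC class II sums were 71.9 to 79.3 in WT and 61.7 to 80.1 in KO Ctrl. Summed over 16 neutrophil granule genes, levels were 1.87 to 4.18 FPKM in WT, 6.74 to 11.2 in KO Ctrl, 4406 to 10946 in WT Reserve and 2374 to 3484 in KO Reserve. Summed over 23 megakaryocyte genes they were 23187 to 33522, 13176 to 22013, 689 to 738 and 321 to 436. Summed over 20 B lymphoid genes they were 83.9 to 116, 194 to 232, 3855 to 4160 and 2931 to 3528, and over 28 erythroid genes 1114 to 1176, 1085 to 1233, 7060 to 9483 and 10846 to 12422. The part of these transcripts in any result below was not tested, and in bulk libraries fewer cells of a type and less RNA per cell cannot be told apart. Xist, the RNA that coats the inactive X chromosome, stood at 2.46, 2.76 and 2.47 FPKM in WT, 3.64, 4.69 and 6.54 in KO Ctrl, 0.802, 0.015 and 0.186 in WT Reserve, and 4.99, 8.64 and 8.59 in KO Reserve. Ddx3y, on the Y chromosome and named after its values were seen, was present in every library. It stood at 5.09 to 8.47 in the nonreserve set, 20.8 to 27.9 in WT Reserve and 13.6 to 14.2 in KO Reserve. The change of Xist was called in the reserve set (2.66, adjusted p = 1.41e-05) and not in the nonreserve set (0.71, adjusted p = 0.191), and Ddx3y was called lower in the reserve knockout (-0.69, adjusted p = 0.00344). Their part in the set differences of other genes was not tested.

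**Figure D1:**
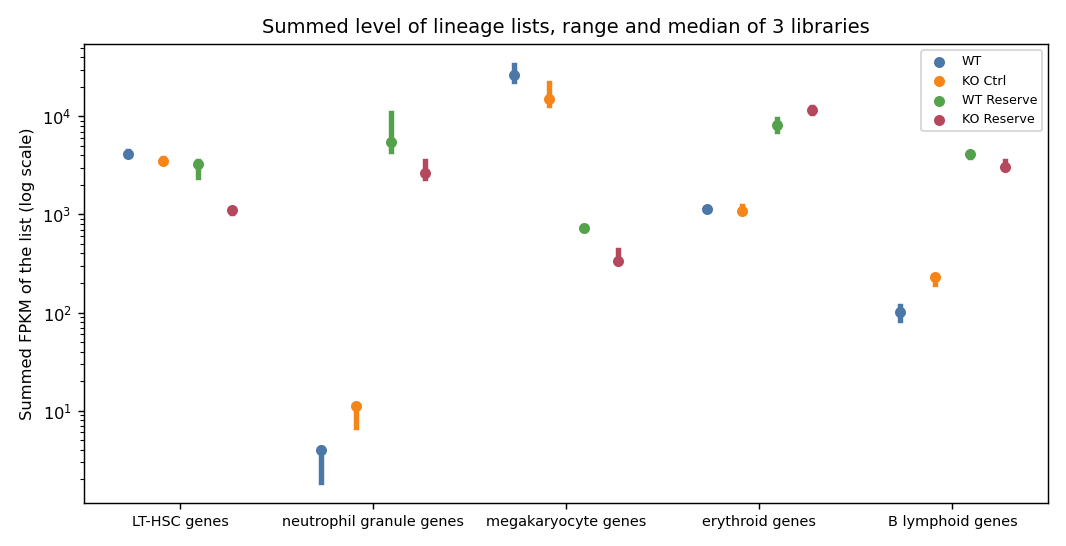
Summed FPKM of 5 gene lists (log axis) in the 4 groups, with the line from the lowest to the highest of 3 libraries and the dot at their median. Neutrophil, erythroid and B lymphoid sums were higher in the reserve groups and the megakaryocyte sum was lower, and LT-HSC genes were lowest in KO Reserve.

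The knockout effect differed between the sets for 3788 genes at a Benjamini-Hochberg adjusted p below 0.05 in limma, 27.3% of those tested. The set difference was positive for 972 of them (6.99%) and negative for 2816 (20.3%), around a median over all genes of -0.22 (SD 0.89, with a median SE per gene of 0.25). An unadjusted p below 0.05 was reached by 5453 genes. The split into positive and negative depended on the scaling. With median-ratio scaling the median over all genes was 0.03 and the calls were 1905 positive (13.7%) and 1732 negative (12.5%), and with quantile normalization they were 1785 and 1689. All 972 positive calls and 1732 of the 2816 negative calls kept their call and direction with median-ratio scaling. Directions below are therefore read against the median of -0.22, and median-ratio values are given for named genes whose call they end and for lists whose count of calls in 1 direction, where it is 2 or more, they move by over 1.5 times.

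Most of the set difference came from the reserve side. Knockout and wild type differed at 5322 genes in the reserve set (38.3%; 1499 higher, or 10.8%, and 3823 lower, or 27.5%, in KO Reserve) and at 264 in the nonreserve set (1.9%; 149 higher, or 1.07%, and 115 lower, or 0.828%, in KO Ctrl). The SD of the effect over all genes was 0.74 in the reserve set and 0.47 in the nonreserve set, with the same median SE of 0.18. Of the 3788 genes with a called set difference, 3258 (86.0%) were called in the reserve set alone, 96 in the nonreserve set alone, 72 in both with opposite directions, 14 in both with the same direction and 348 in neither. At least 1 FPKM in all 4 groups was reached by 3012 of the 3788, whereas 320 averaged below 1 FPKM in both nonreserve groups and 59 in both reserve groups, and for these the set difference is close to the effect in the other set. Across all tested genes the effects had a Pearson r of -0.03 and a Spearman rho of -0.05, given as a description, since genes are not independent replicates. Without 1 library the total ran from 2811 to 4390 calls. The plot of both effects shows a spread that is longer along the reserve axis.

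**Figure D2:**
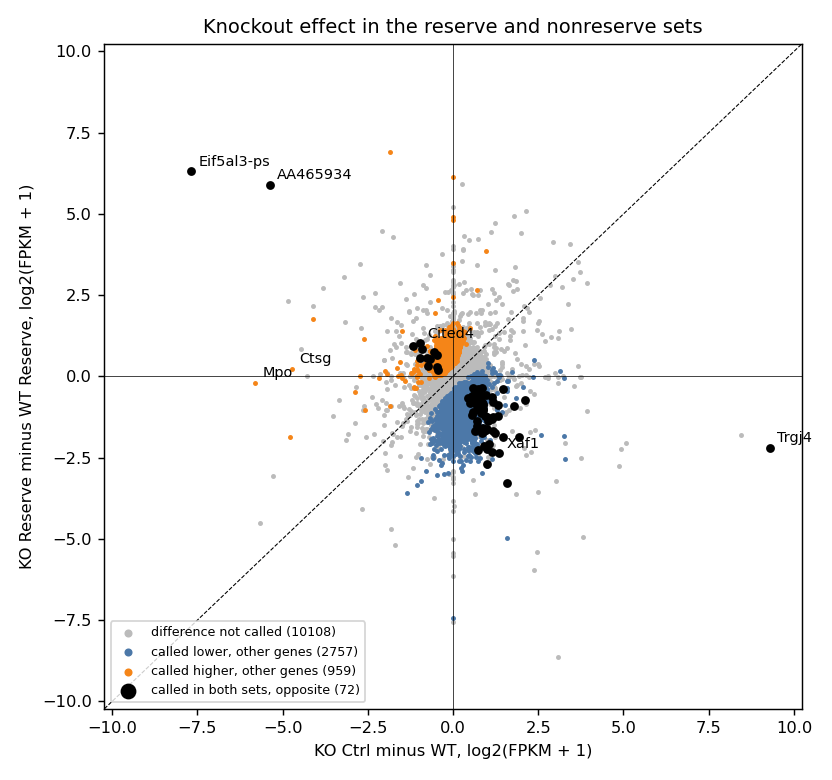
Knockout effect per gene in the nonreserve set (x axis) and the reserve set (y axis), both as log2(FPKM + 1) differences, with 1 dot per gene and a dashed line where the effects are equal. Orange and blue dots are called positive and negative set differences, and black dots are the 72 genes called in opposite directions, with AA465934 and Eif5al3-ps at the upper left.

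Genes called in both sets numbered 144, which is 54.5% of the nonreserve calls and 2.71% of the reserve calls. Over all tested genes, 38.3% were called in the reserve set and 1.9% in the nonreserve set. The 144 genes divided into 72 with opposite directions (0.518% of the genes tested) and 72 with the same direction. Of the opposite genes, 59 were lower in KO Reserve and higher in KO Ctrl, with a median change of -1.12 in the reserve set and 0.89 in the nonreserve set, and 13 were the reverse. Of the 72, 54 were called in opposite directions with median-ratio scaling as well, and 45 with quantile normalization. The number was sensitive to single libraries: it was 18 without WT replicate 3, 19 without WT replicate 1, 33 without WT replicate 2, 26 without KO Ctrl replicate 2, 31 without KO Ctrl replicate 3, 42 without KO Reserve replicate 2 and 125 without WT Reserve replicate 2.

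AA465934, a noncoding transcript on chromosome 11 (GRCm38, 83291699 to 83294632), had the largest set difference among the genes chosen by rule. Its levels were 156, 178 and 188 FPKM in WT, 4.44, 3.25 and 2.18 in KO Ctrl, 21.6, 20.6 and 15.7 in WT Reserve, and 1028, 1142 and 1454 in KO Reserve. The order of knockout and wild type was reversed between the sets with no overlap in either. The change was -5.38 in the nonreserve set and 5.89 in the reserve set, a set difference of 11.28 (SE 0.27, adjusted p = 1.43e-10). Eif5al3-ps, a processed pseudogene on chromosome 5 (90132229 to 90132675) named after its values were seen, had the same form. It stood at 400, 415 and 417 FPKM in WT, 1.32, 1.16 and 0.623 in KO Ctrl, 5.14, 3.94 and 1.12 in WT Reserve, and 386, 322 and 263 in KO Reserve. Its set difference was 14.00 (SE 0.46, adjusted p = 3.64e-08). Reads of a processed pseudogene may be shared with its parent gene, so its level is uncertain. For both transcripts, WT and KO Reserve were the groups with high levels.

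Cited4, a CBP/p300-interacting transactivator gene (chromosome 4, 120666572 to 120667820), was at 3.85, 4.35 and 2.94 FPKM in WT and 1.54, 1.68 and 1.03 in KO Ctrl. In the reserve set it was at 16.7, 13.1 and 19.9 in WT Reserve and 32.3, 35.7 and 35.4 in KO Reserve. The knockout was thus lower in every nonreserve library and higher in every reserve library, with a set difference of 1.99 (SE 0.25, adjusted p = 0.000212). Hpn, which encodes the membrane serine protease hepsin, went from 2.55, 2.6 and 4.84 to 1.19, 0.714 and 0.714 FPKM in the nonreserve set and from 49.5, 43.3 and 51 to 86, 82.1 and 115 in the reserve set. This gave a set difference of 2.13 (SE 0.29, adjusted p = 0.000342). Gdf3, a TGF-beta family ligand, had a set difference of 1.51 (SE 0.27, adjusted p = 0.00166), with changes of -0.96 and 0.55.

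Among genes with the reverse pattern, Xaf1, an interferon-induced gene that encodes an antagonist of the apoptosis inhibitor XIAP (chromosome 11, 72301629 to 72313733), was at 3.34, 4.56 and 2.53 FPKM in WT and 8.15, 11.6 and 11.6 in KO Ctrl. In the reserve set it was at 55.2, 60.9 and 47.9 in WT Reserve and 8.07, 13.1 and 8.77 in KO Reserve. The knockout levels of the sets were alike while the wild-type levels were far apart, and the set difference was -3.73 (SE 0.30, adjusted p = 1.48e-05). Selplg, which encodes the P-selectin ligand used by leukocytes to roll on vessel walls, was at 69.1, 77.3 and 64.6 in WT, 142, 168 and 169 in KO Ctrl, 181, 105 and 155 in WT Reserve, and 55, 45.4 and 34.5 in KO Reserve. For Selplg the set difference was -2.85 (SE 0.28, adjusted p = 4.72e-05). Cd72, a B cell co-receptor gene, changed by 1.33 in the nonreserve set and by -1.23 in the reserve set, a set difference of -2.56 (SE 0.40, adjusted p = 0.00086). Tnfsf13os, antisense to the cytokine gene Tnfsf13 and not to be told from it without strand, stood at 0.655 to 1.02 in WT, 2.69 to 7.66 in KO Ctrl, 9.69 to 13.9 in WT Reserve and 0.119 to 0.588 in KO Reserve, with a set difference of -4.85 (SE 0.39, adjusted p = 1.48e-05).

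**Figure D3:**
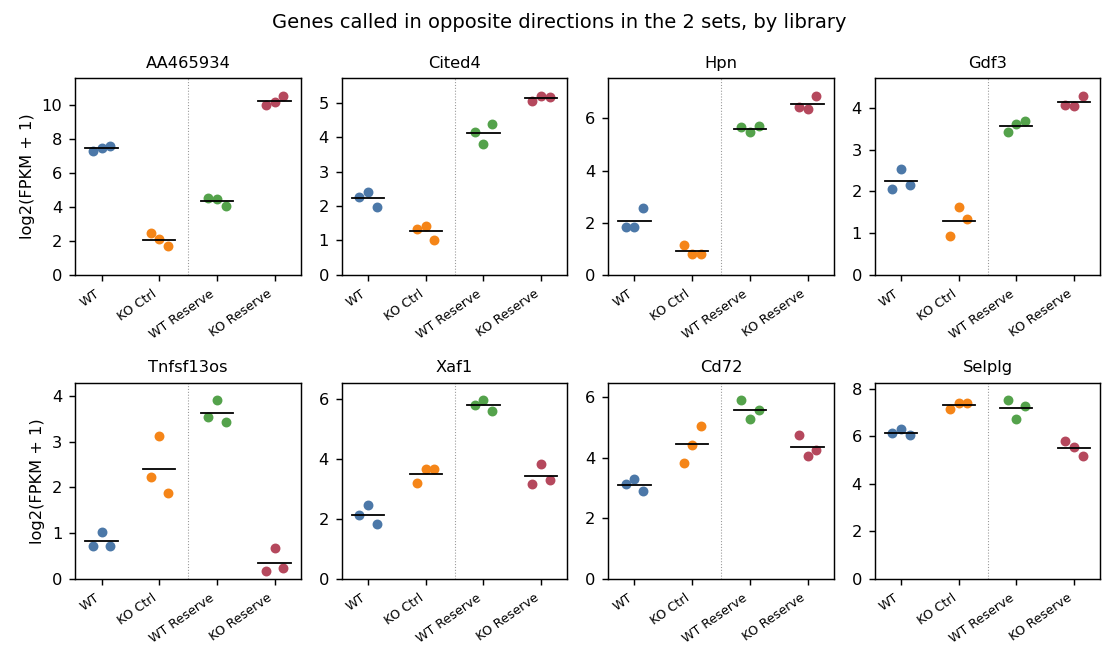
Levels on the log2(FPKM + 1) scale of 8 genes called in opposite directions, with 1 dot per library and a bar at the mean of 3. In the upper row KO Ctrl lies below WT and KO Reserve above WT Reserve, and in the lower row the order is the reverse.

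Trgj4, a T cell receptor gamma joining segment of 61 bases named after its values were seen, was listed at 0 in every WT library, at 926, 541 and 499 FPKM in KO Ctrl, 4669, 9284 and 7186 in WT Reserve, and 993, 1747 and 1868 in KO Reserve. FPKM of so short a transcript depend strongly on the scaling by length, and without counts its level is uncertain. The constant gene of the same locus, Tcrg-C4, also named after its values were seen, followed the same order at 1.2, 1.45 and 0.799 in WT, 6.42, 4.71 and 3.96 in KO Ctrl, 88.8, 112 and 87.5 in WT Reserve, and 23.1, 29.1 and 24.9 in KO Reserve. Here the set difference was -3.34 (SE 0.25, adjusted p = 1.48e-05). Among the genes of rule-based choice, Mir130c, Mir763, Snora15 and n-TSaga9 are also very short transcripts, of 82, 120, 131 and 107 bases. Mir130c was listed at 0 in all 3 KO Reserve libraries and stood at 116 to 252 FPKM in WT Reserve and 180 to 743 in the nonreserve set. n-TSaga9 was listed at 0 in the other 9 libraries and at 17.9, 50.3 and 26.9 in KO Reserve. The Snora15 call ended without any 1 of 5 libraries (KO Ctrl replicates 1 and 2, WT replicates 1 and 2, WT Reserve replicate 1), with values from -5.04 to -4.74.

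A smaller group of genes differed because the nonreserve knockout changed and the reserve knockout did not pass the test. Of the 96 such genes, 36 had a positive and 60 a negative set difference, and 21 averaged below 1 FPKM in both reserve groups. Mpo, which encodes the myeloperoxidase of primary granules in granulocyte precursors, was at 53.7, 60.9 and 65.4 FPKM in WT and at 0.273, 0.011 and 0.01 in KO Ctrl. In the reserve set it was at 186, 112 and 95.1 in WT Reserve and 68.8, 111 and 173 in KO Reserve. The nonreserve groups were far apart and the reserve groups overlapped, with a set difference of 5.61 (SE 0.44, adjusted p = 2.28e-05). Gm11505, named after its values were seen, lies antisense inside Mpo and cannot be told from it without strand. It was called lower in the knockout of both sets, with changes of -4.79 and -1.88. Ctsg, for the granule protease cathepsin G, was at 23.5, 26.4 and 26.8 in WT, listed at 0 in all 3 KO Ctrl libraries, and at 107, 112 and 25.3 in WT Reserve and 41.7, 94.4 and 127 in KO Reserve. Its set difference was 4.96 (SE 0.80, adjusted p = 0.00236). Of the 8 tested primary granule genes, Mpo, Ctsg and Ms4a3 had called positive and Gfi1, a transcription factor of this lineage, a called negative set difference. These shares of 37.5% and 12.5%, against 6.99% and 20.3% over all genes, rest on few genes. Elane and Prtn3, which encode neutrophil elastase and proteinase 3, had 0.92 and -0.21 (adjusted p = 0.264 and 0.815).

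Mcpt8, a basophil protease gene, was at 6.69, 7.72 and 8 FPKM in WT, 0, 0 and 0.564 in KO Ctrl, 7.31, 5.47 and 2.99 in WT Reserve, and 5.62, 3.4 and 1.79 in KO Reserve, a set difference of 2.40 (SE 0.45, adjusted p = 0.0025). Slc6a4, the serotonin transporter gene, was at 78.4, 70.9 and 83.6 in WT and 20.6, 5.37 and 11.1 in KO Ctrl, and was listed at 0 in all 6 reserve libraries. Npy, for the neuropeptide Y, was at 184, 143 and 251 in WT and 116, 45.2 and 54 in KO Ctrl and near 0 in the reserve set. For Slc6a4 and Npy the set difference, of 2.73 and 1.46, is the nonreserve effect alone, since no change could be seen in the reserve set. The Npy call ended without KO Ctrl replicate 3 (1.32, adjusted p = 0.0512) and without WT replicate 3 (1.25, adjusted p = 0.0557). Ccl2, a monocyte chemokine gene, was at 7, 6.95 and 25.2 in WT, 1.58, 0.808 and 2.81 in KO Ctrl and at most 0.447 in every reserve library, with a set difference of 2.14 (SE 0.58, adjusted p = 0.0188).

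**Figure D4:**
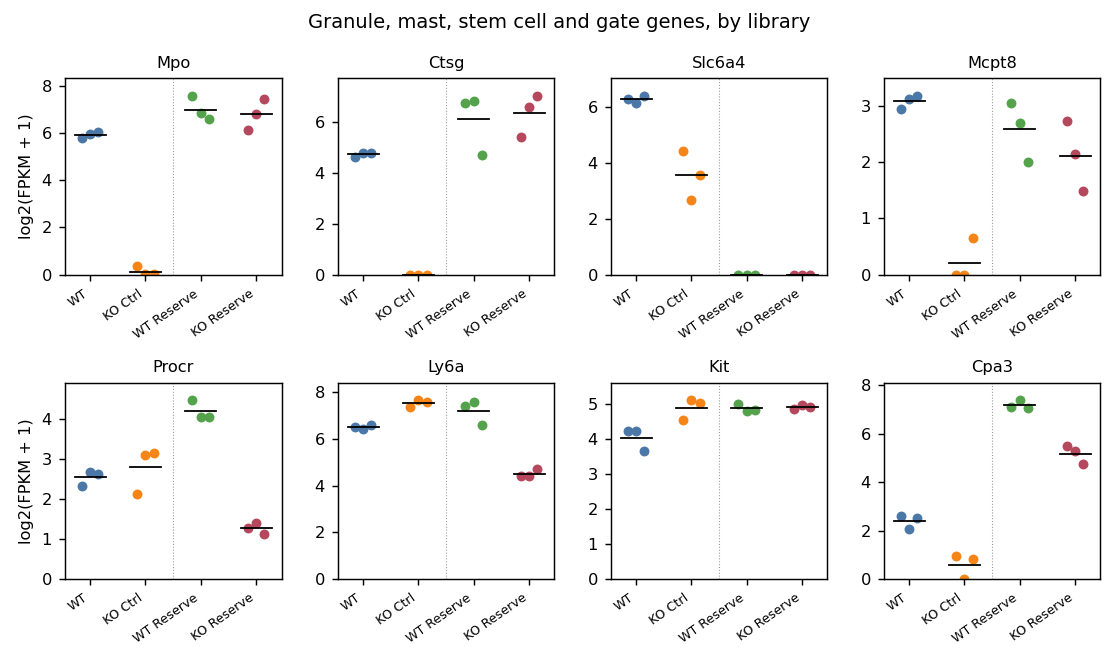
Levels on the log2(FPKM + 1) scale of 8 granule, mast cell, stem cell and gate genes, with 1 dot per library and a bar at the mean of 3. Mpo, Ctsg and Mcpt8 were near 0 in KO Ctrl only, Procr and Ly6a were lowest in KO Reserve, and Cpa3 was lower in the knockout of both sets.

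Genes that mark LT-HSC mostly had negative set differences. Of 37 tested, 30 had a called negative and 1 a called positive set difference, with a median of -1.41 against -0.22 over all genes. The counts were 23 and 2, and the median -1.23, with median-ratio scaling. In the reserve set 32 were called lower and 2 higher in the knockout, and in the nonreserve set 2 were called higher and 0 lower. Procr, the gene of a surface receptor (EPCR) by which stem cells are purified, was at 4.02, 5.44 and 5.17 FPKM in WT, 3.38, 7.55 and 7.92 in KO Ctrl, 21.1, 15.7 and 15.6 in WT Reserve, and 1.42, 1.65 and 1.19 in KO Reserve. WT and KO Ctrl overlapped while KO Reserve lay below every other library, and the set difference was -3.17 (SE 0.35, adjusted p = 0.000106). Hlf, a transcription factor gene of stem cell identity, was at 4.92, 4.95 and 4.55 in WT, 7.37, 7.59 and 8.53 in KO Ctrl, 14, 12.6 and 9.71 in WT Reserve, and 1.35, 2.11 and 2.03 in KO Reserve, a set difference of -2.81 (SE 0.23, adjusted p = 1.48e-05). Mecom and Meis1, further transcription factor genes, had set differences of -2.68 and -1.82. Tal1, a factor shared with the erythroid lineage, was the positive call, at 1.31 (SE 0.25, adjusted p = 0.00234).

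The genes behind the sort gate did not move alike. Ly6a, which encodes Sca-1, was at 91, 85.8 and 95.7 FPKM in WT and 163, 201 and 190 in KO Ctrl, and at 169, 191 and 95.5 in WT Reserve and 20.2, 20.1 and 25.3 in KO Reserve. It was called higher in the nonreserve knockout and lower in the reserve knockout, with a set difference of -3.70 (SE 0.29, adjusted p = 1.48e-05). Kit was at 17.8, 17.8 and 11.6 in WT, 22.6, 33.6 and 31.9 in KO Ctrl, 31.6, 27 and 27.8 in WT Reserve, and 28.3, 30.6 and 29.6 in KO Reserve. Its set difference of -0.83 (SE 0.25, adjusted p = 0.0281) came from the nonreserve side. The Kit call ended with median-ratio scaling (-0.53, adjusted p = 0.126) and without any 1 of KO Ctrl replicates 2 and 3, KO Reserve replicate 3, WT replicate 3 and WT Reserve replicate 1, with values from -0.83 to -0.64. Cd34, whose protein the gate excludes, was present throughout, at 341 to 370 in WT, 371 to 437 in KO Ctrl, 64.1 to 70.8 in WT Reserve and 8.3 to 14.6 in KO Reserve, a set difference of -2.76 (SE 0.22, adjusted p = 1.48e-05). Flt3, which encodes Flk2 and is also excluded by the gate, stood at 0.346 to 0.79, 0.846 to 1.87, 12.4 to 18.7 and 3.83 to 3.99 in the same order of groups, a set difference of -2.37 (SE 0.28, adjusted p = 0.000153). Itga2, for CD49b, was below the filter, at 0.205 to 0.397 in WT and at most 0.042 elsewhere. Cd34 and Flt3 belong to the 18 tested multipotent progenitor genes, of which 11 had a called negative and 0 a called positive set difference (median -1.26). In both nonreserve groups 3 of the 18 averaged below 1 FPKM.

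Hox genes of the a cluster moved together. Hoxa5, Hoxa7, Hoxa9 and Hoxa10, the 4 that passed the filter of 12, all had called negative set differences, of -1.23, -1.39, -2.94 and -2.15, and all 4 were also called with median-ratio scaling and quantile normalization. Hoxa9, a self-renewal factor, was at 11, 10.2 and 8.12 FPKM in WT, 13.8, 21.1 and 21.7 in KO Ctrl, 30.5, 26.6 and 21.4 in WT Reserve, and 6.54, 5.4 and 4.35 in KO Reserve. Every KO Reserve library was below every other library. For the Hoxb cluster, 2 of 12 listed transcripts passed the filter. Hoxb2 was at 3.38, 3.4 and 3.1 in WT, 3.27, 5.05 and 4.37 in KO Ctrl, 2.16, 1.94 and 1.17 in WT Reserve, and 0.674, 1.45 and 1.43 in KO Reserve. Its set difference of -0.61 (SE 0.29) was not called (adjusted p = 0.139). Hoxb5os, antisense across Hoxb5 and Hoxb6, was at 1.1, 1.36 and 1.15 in WT, 2.46, 2.03 and 2.59 in KO Ctrl, 1.89, 0.88 and 0.596 in WT Reserve, and 0.439, 0.155 and 0.165 in KO Reserve. It had a called set difference of -1.33 (SE 0.30, adjusted p = 0.00632). Hoxb5 itself stayed below the filter, at 0.384 to 0.689, 0.637 to 0.894, 0.544 to 0.957 and 0.112 to 0.255 in the same order of groups, and Hoxb4 stood at 0.193 to 0.521 over all 12 libraries.

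Along chromosome 11, set differences were called for 27.3% of the 267 tested genes within 10 Mb of the Hoxb cluster, 28.8% of 212 from 10 to 20 Mb, 27.7% of 383 from 20 to 40 Mb and 29.0% of 303 beyond 40 Mb. Chromosome 11 carried 8.38% of the tested genes and 16.7% of those called in opposite directions (12 of 72). Among them were AA465934, Xaf1, Tnfsf13os, Gps2, Pik3ip1, Spns3 and Chad, and 4 of the 12 lay within 10 Mb of the cluster. The excess was not particular to this chromosome, as chromosome 4 carried 6.22% of the tested and 12.5% of the opposite genes (9). Chromosome 11 also held 12.9% of all nonreserve calls (34), from which every gene called in opposite directions is drawn. Of the 12 tested retinoid pathway genes, 2 (16.7%) had a called positive and 3 (25%) a called negative set difference, with a median of -0.18. Over all genes the shares were 6.99% and 20.3% and the median -0.22. The negative share and the median of the list thus lay near those of all genes, and the positive share rests on 2 genes. Rara, for the receptor RAR-alpha, had -1.27 (SE 0.33, adjusted p = 0.0135) and Rxrg, for RXR-gamma, -2.17. Aldh1a1, which makes retinoic acid from retinal, was at 53.6, 52.7 and 48.7 FPKM in WT, 31.8, 37.3 and 41.8 in KO Ctrl, 23.3, 26.9 and 25 in WT Reserve, and 35.7, 34.8 and 35.3 in KO Reserve, a set difference of 0.96 (SE 0.16, adjusted p = 0.00134). Knockout libraries lay below wild type in the nonreserve set and above it in the reserve set, though the nonreserve change missed the threshold (adjusted p = 0.0572).

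**Figure D5:**
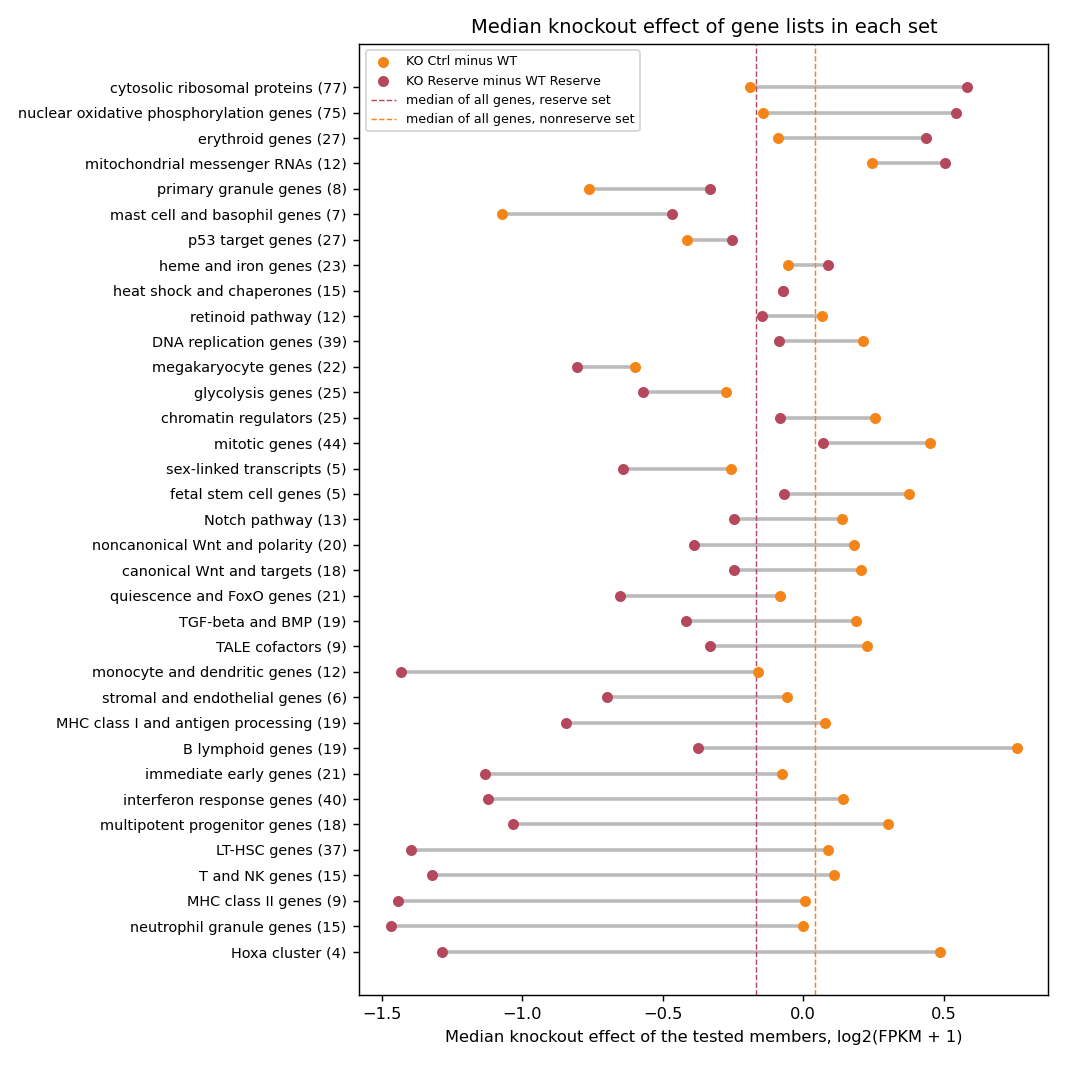
Median knockout effect of the tested members of each gene list with at least 4 of them, in the nonreserve set (orange) and the reserve set (red), joined by a line, with the number tested in parentheses. Dashed lines are the medians over all genes, 0.04 and -0.17; ribosomal, oxidative phosphorylation and erythroid lists lie to the right in the reserve set, and stem cell, interferon and MHC class II lists to the left.

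Interferon response genes, a list that holds Xaf1, mostly had negative set differences. Of 40 tested, 28 had a called negative and 1 a called positive set difference (median -1.17, with 23 and 2 calls after median-ratio scaling). In both nonreserve groups 7 of the 40 averaged below 1 FPKM. In the reserve set 31 were lower and 0 higher, and in the nonreserve set 1 (Xaf1) was higher and 1 lower. Oasl2, a 2-5A synthetase-like gene, was at 1.87, 1.89 and 2.16 FPKM in WT, 7.92, 3.69 and 3.35 in KO Ctrl, 11.5, 12 and 9.52 in WT Reserve, and 1.72, 2.26 and 1.24 in KO Reserve, a set difference of -3.07 (SE 0.35, adjusted p = 0.000123). Isg20, an interferon-induced exonuclease gene, was the positive call, at 0.85. Among 9 tested MHC class II genes, which present peptides to helper T cells, 8 had a called negative set difference (median -1.56), and H2-Aa was at 1.72 to 2.18 in WT, 2.55 to 8.29 in KO Ctrl, 51.5 to 89.8 in WT Reserve and 4.74 to 10.5 in KO Reserve. Of 19 class I and antigen-processing genes, 12 had a called negative and 0 a called positive set difference (median -0.95). H2-K1, a class I heavy chain gene, was at 684, 797 and 768 in WT, 641, 823 and 939 in KO Ctrl, 1045, 831 and 912 in WT Reserve, and 445, 438 and 388 in KO Reserve. Its nonreserve groups overlapped and its reserve groups did not.

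Lymphoid genes differed in both sets. Of 19 tested B lymphoid genes, 13 had a called negative and 0 a called positive set difference (median -1.01). There were 8 called higher in the nonreserve knockout and 7 called lower in the reserve knockout. In WT, 10 of the 19 averaged below 1 FPKM. The 6 that did so in both nonreserve groups were tested mainly through their reserve levels. The opposite directions were called for Cd79a, Igll1 and Cd72. Igll1, a surrogate light chain gene of B cell precursors, was at 10.6, 11.2 and 8.28 FPKM in WT, 30.1, 33.9 and 24.7 in KO Ctrl, 1121, 1335 and 1062 in WT Reserve, and 1010, 841 and 829 in KO Reserve, a set difference of -1.86 (SE 0.21, adjusted p = 0.000111). Cd79a, for a signalling chain of the B cell receptor, had -1.76 (SE 0.23). Of 15 T and NK genes, 3 of which averaged below 1 FPKM in both nonreserve groups, 9 had a called negative and 0 a called positive set difference (median -1.50). Among the 9 were Lck, a kinase of the T cell receptor, at -2.27 (SE 0.29), and the receptor gene Trbc2 at -2.41 (SE 0.33). Cd27, a costimulatory receptor gene also used to divide progenitors, was called in opposite directions, at 21.4, 20.4 and 19.4 in WT, 31.2, 40.3 and 48.4 in KO Ctrl, 81.6, 68.2 and 68.4 in WT Reserve, and 19.7, 12.9 and 15.3 in KO Reserve, a set difference of -3.05 (SE 0.25, adjusted p = 1.48e-05). Of the 15 neutrophil granule genes that passed the filter, 12 averaged below 1 FPKM in both nonreserve groups and were tested only through their reserve levels, so the 6 negative calls are given without a reading. S100a9, for a calcium-binding protein of neutrophils, was at 0 to 0.544 FPKM in WT, 1.22 to 3.82 in KO Ctrl, 1185 to 3155 in WT Reserve and 780 to 1020 in KO Reserve. Its set difference of -2.54 (SE 0.52, adjusted p = 0.00619) joined a change of -1.11 in the reserve set to one of 1.43 between these low nonreserve levels, which was not called (adjusted p = 0.0931). Of 12 monocyte and dendritic genes, 4 had a called negative set difference, among them Lyz2 at -2.03 and the chemokine receptor gene Ccr2 at -2.01. That share of 33.3%, against 20.3% over all genes, rests on few genes. In both nonreserve groups 3 of the 12 averaged below 1 FPKM.

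Most genes of the ribosomal and respiratory chain lists had positive set differences. Of 77 tested cytosolic ribosomal protein genes, 70 had a called positive and 0 a called negative set difference (median 0.76, range of counts 50 to 76 over quantile and median-ratio scaling). They were called higher in the reserve knockout for 73 genes and in neither direction in the nonreserve knockout, where the median was -0.19. Rps2, a small subunit gene, was at 426, 479 and 436 FPKM in WT, 350, 391 and 393 in KO Ctrl, 496, 481 and 480 in WT Reserve, and 894, 1008 and 1165 in KO Reserve, a set difference of 1.30 (SE 0.14, adjusted p = 9.85e-05). Of 75 nuclear genes for oxidative phosphorylation, the mitochondrial respiratory chain, 56 had a called positive and 0 a called negative set difference (median 0.65; 41 with quantile normalization). Cox6a1, a cytochrome c oxidase subunit gene, was at 851, 954 and 1013 in WT, 766, 756 and 851 in KO Ctrl, 1026, 1125 and 976 in WT Reserve, and 1584, 1820 and 2066 in KO Reserve, a set difference of 1.05 (SE 0.15, adjusted p = 0.000555). Messenger RNAs encoded by the mitochondrial genome gave 3 positive calls of 12 (5 with median-ratio scaling), which turned into 0 positive and 2 negative calls with quantile normalization. The chaperonin gene Hspe1 had a set difference of 1.12 (SE 0.14, adjusted p = 0.000227).

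Erythroid genes had positive calls only. Of 27 tested, 12 of which averaged below 1 FPKM in both nonreserve groups, 14 had a called positive and 0 a called negative set difference (median 0.57; 18 and 0.81 with median-ratio scaling). In the reserve knockout 15 were higher and 1 lower, and in the nonreserve knockout none was called. Blvrb, for the biliverdin reductase of red cells, was at 166, 141 and 183 FPKM in WT, 156, 140 and 146 in KO Ctrl, 667, 762 and 716 in WT Reserve, and 1368, 1535 and 1546 in KO Reserve, a set difference of 1.19 (SE 0.15, adjusted p = 0.0002). Aqp1, a water channel gene of the red cell membrane, was at 1.79 to 2.47 in the nonreserve set, 15.5 to 17 in WT Reserve and 34.8 to 44.9 in KO Reserve, a set difference of 1.30 (SE 0.20, adjusted p = 0.000658). Epor, the erythropoietin receptor gene, had 0.93 (SE 0.18, adjusted p = 0.00322).

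Cell cycle lists were less uniform. Of 44 mitotic genes, 1 had a called positive and 14 a called negative set difference (median -0.42), which became 5 and 4 with median-ratio scaling (median -0.11). Before that scaling the shares were 2.27% and 31.8%, against 6.99% and 20.3% over all genes. In the nonreserve knockout 13 were called higher, and in the reserve knockout 9 were called higher and 3 lower. The 15 calls became 24 without KO Reserve replicate 1, 9 without KO Reserve replicate 2 or 3 and 7 without WT replicate 3. Kif23, a kinesin gene of cytokinesis, was called in opposite directions, at 9.56, 12.3 and 8.9 FPKM in WT, 18.5, 16.6 and 18.3 in KO Ctrl, 20.1, 18.5 and 17.9 in WT Reserve, and 14.4, 13.6 and 12.3 in KO Reserve. Its set difference was -1.21 (SE 0.19, adjusted p = 0.000818). Of 39 DNA replication genes, 2 had a called positive and 7 a called negative set difference, shares of 5.13% and 17.9% that lie below those over all genes, turning to 6 and 1 with median-ratio scaling. The 9 calls were 16 without KO Reserve replicate 1 and 5 without any 1 of KO Reserve replicates 2 and 3, KO Ctrl replicate 2 and WT replicate 3. Mcm6, a subunit of the replicative helicase, had -1.12 (SE 0.22, adjusted p = 0.00326). Of 27 targets of p53, 6 had a called positive and 2 a called negative set difference (median 0.24; 9 and 2 with median-ratio scaling, 11 and 2 with quantile normalization), and 5 were called lower in the nonreserve knockout. These 8 calls were 5 without any 1 of the WT libraries, KO Ctrl replicate 3 or KO Reserve replicate 2. The shares among p53 targets were 22.2% positive and 7.41% negative, against 6.99% and 20.3% over all genes. Phlda3, a p53-induced repressor of AKT signalling, had 1.36 (SE 0.24, adjusted p = 0.00154), from a nonreserve change of -1.14, while Sesn1, a stress-response gene, had -1.80 (SE 0.22, adjusted p = 0.000206), from a reserve change of -1.51.

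Immediate early genes, which are transcribed within minutes of a stimulus, had 12 called negative and 0 called positive set differences of 21 (median -1.13). Egr1 was at 21.2, 23.7 and 27.2 FPKM in WT, 23.8, 41.6 and 37.5 in KO Ctrl, 27.7, 20.1 and 22 in WT Reserve, and 4.01, 5.03 and 4.08 in KO Reserve, a set difference of -2.64 (SE 0.28, adjusted p = 9.58e-05). Dusp1, a phosphatase that limits MAP kinases, was at 3.18 to 4.16 in the nonreserve set, 78.3 to 94.1 in WT Reserve and 13.1 to 22.4 in KO Reserve. Of 21 quiescence and FoxO genes, 7 had a called negative and 2 a called positive set difference (median -0.60), with Cited2 at -1.54 (SE 0.18, adjusted p = 0.000134). Of 19 TGF-beta and BMP genes, 8 had a called negative and 0 a called positive set difference (median -0.64). Smad4, the shared mediator of that pathway, was at 13.1, 13.5 and 13.6 in WT, 18.9, 23.2 and 17.9 in KO Ctrl, 14.4, 12.6 and 17.6 in WT Reserve, and 8.61, 6.92 and 5.8 in KO Reserve. Its set difference was -1.50 (SE 0.23, adjusted p = 0.000705), with each KO Ctrl library above WT and each KO Reserve library below WT Reserve. Notch pathway genes gave 4 negative and 0 positive calls of 13, with the fringe genes Lfng at -2.14 (SE 0.36) and Mfng at -1.72 (SE 0.22). In both nonreserve groups 3 of the 13 averaged below 1 FPKM. Canonical Wnt genes gave 5 negative and 0 positive calls of 18 (3 negative with median-ratio scaling), with Tcf7 at -1.94 and Wls, needed for the secretion of Wnt ligands, at -1.49. These 5 calls were 3 without any 1 of KO Ctrl replicate 3, KO Reserve replicate 2, WT replicates 1 and 3 and WT Reserve replicate 1. Noncanonical Wnt and polarity genes gave 2 positive and 6 negative calls of 20 (2 and 3 with median-ratio scaling), with Daam1, a formin activated by Wnt signalling, at 1.21 (SE 0.28, adjusted p = 0.00722) and Camk2d at -1.35 (SE 0.30, adjusted p = 0.00546). Of 25 glycolysis genes, 8 had a called negative set difference, which became 2 positive and 5 negative with median-ratio scaling. They were 5 without any 1 of KO Ctrl replicate 2 and WT replicates 1 and 2. Ldhb, for a lactate dehydrogenase subunit, was at -2.58 (SE 0.28) and the glucose transporter gene Slc2a1 at -1.50 (SE 0.20). Without median-ratio scaling, negative calls made up 57.1% of immediate early, 33.3% of quiescence and FoxO and 42.1% of TGF-beta and BMP genes. For Notch, canonical Wnt, noncanonical Wnt and glycolysis genes they made up 30.8%, 27.8%, 30% and 32%, against 20.3% over all genes. Positive calls made up 9.52% of quiescence and 10% of noncanonical Wnt genes, against 6.99% over all genes. These shares rest on few genes per list.

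Among the remaining lists, the TALE cofactors of Hox proteins gave 5 negative and 0 positive calls of 9 (3 negative with median-ratio scaling), with Meis1 at -1.82 and Tgif1, called in opposite directions, at -1.73 (SE 0.20). Mast cell and basophil genes gave 2 positive calls (Mcpt8 and Gzmb) and 1 negative (Il4, at -2.09 with SE 0.44) of 7. These are 28.6% and 14.3%, against 6.99% and 20.3% over all genes, and rest on few genes. Megakaryocyte genes gave 1 positive and 4 negative calls of 22, shares of 4.55% and 18.2% that lie below those over all genes, with 14 called lower in the reserve knockout and 3 in the nonreserve knockout, and Nfe2, a transcription factor of platelet formation, at -1.30 (SE 0.14). Heme and iron genes gave 4 positive and 2 negative calls of 23 (8 and 2 with median-ratio scaling), with Ncoa4, the receptor for ferritin breakdown, at -2.55 (SE 0.31). Their shares of 17.4% and 8.7% stand against 6.99% and 20.3% over all genes. Heat shock genes gave 3 positive and 3 negative of 15 (the negative share of 20% is close to the 20.3% over all genes), which became 6 and 0 with median-ratio scaling. Chromatin regulators gave 3 negative calls of 25 (Ezh1, Bmi1 and Rnf2, of Polycomb complexes), or 12%, a smaller share than the 20.3% over all genes (1 positive and 2 negative with median-ratio scaling). The Bmi1 call, at -0.97, ended with median-ratio scaling (-0.68, adjusted p = 0.0785). Fetal stem cell genes gave 2 negative calls of 5, stromal and endothelial genes 3 of 6 (Pecam1, Emcn and Eng) and hepatocyte genes 3 of 3 tested of 11 listed (Afp, Trf and Ahsg). Alb, the defining hepatocyte transcript, was listed at 0 in 11 of the 12 libraries. In all, 25 of the 37 lists had a median below that of all genes and 12 above it.

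Of the 72 genes called in the same direction in both sets, 56 were lower and 16 higher in the knockout, and 14 of them also had a called set difference. Cpa3, for the mast cell carboxypeptidase, was at 5.06, 3.18 and 4.71 FPKM in WT, 0.902, 0 and 0.795 in KO Ctrl, 138, 165 and 135 in WT Reserve, and 44.1, 38.3 and 25.8 in KO Reserve. It fell in both sets, by 1.8 and by 2.02 on the log2 scale, and the set difference of -0.21 had a 95% confidence interval from -1.0 to 0.57. Lgals3, which encodes galectin-3, fell by 2.31 and by 1.77, with a set difference of 0.54 (95% confidence interval -0.38 to 1.46). Aspm, a spindle pole gene, rose by 0.90 and 0.92, with a set difference of 0.01 (-0.41 to 0.43), and Vangl1, a planar polarity gene, rose by 1.20 and 0.76, with -0.44 (-0.94 to 0.06). The intervals are wide, and a set difference of up to their bounds cannot be told from these libraries. Cpa3 changed sign with median-ratio scaling (0.02) and quantile normalization (0.015). Tyrobp, an adaptor gene of myeloid and NK cells named after its values were seen, was lower in the knockout of both sets, with a set difference of 0.54 (adjusted p = 0.156), which was called with median-ratio scaling (0.82, adjusted p = 0.0376) and without KO Ctrl replicate 3 (0.78, adjusted p = 0.0222). With the Wnt5a-labelled libraries described next as the nonreserve set, several of these genes had called set differences: 0.82 for Aspm (adjusted p = 0.0168), whose change there was 0.09, and values of the opposite sign for Lgals3 (-1.18, adjusted p = 0.00862), Tyrobp (-1.55, adjusted p = 0.000639) and Vangl1 (0.77, adjusted p = 0.0233).

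The nonreserve side of the comparison could be set beside 6 further libraries that share none of these, from wild-type cells and knockout cells with the Wnt5a label. There, knockout and wild type differed at 282 genes (2.03%; 101 higher and 181 lower). The change had the same sign as KO Ctrl minus WT for 66.2% of all tested genes, for 243 of the 264 nonreserve calls (92.0%; 70 of them called) and for 69 of the 72 genes called in opposite directions (95.8%; 19 of them called). AA465934 was at 150, 181 and 150 FPKM in Wnt5a and 1.97, 6.36 and 4.58 in KO Wnt5a, the same order as in WT and KO Ctrl, and its change was -5.02 (adjusted p = 3.99e-06). Xaf1 changed by 1.30 (adjusted p = 0.0022) and Mpo by -6.13, while Cited4 changed by -0.31 (adjusted p = 0.393) and Ly6a by 0.54 (adjusted p = 0.278). With these libraries in place of WT and KO Ctrl, 2763 of the 3788 calls kept their call and direction, and 18 of the 72 opposite genes remained. Set differences of Igll1 (-0.86), Cd79a (-0.87), Camk2d (-0.77), Gdf3 (0.89), Ccl2 (0.73) and Hoxb5os (-0.92) kept their sign and were no longer called, as were those of Slc6a4 (3.18), Trgj4 (-6.91), n-TSaga9 (5.92), Mir763 (-3.97), Snora15 (-2.73), Bmi1 (-0.68) and Eif2s3y (-0.74). That of Hoxb2 became called (-0.92, adjusted p = 0.0339), as did those of Aspm, Lgals3, Tyrobp and Vangl1. This alternative was chosen after seeing the data.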

How the data were processed

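Expression in sorted marrow LT-HSC was measured by RNA-seq, with SMARTer ultra low input complementary DNA and Nextera libraries, per the labels' protocols. This chemistry keeps no strand. Per the submitters' processing notes, the tools were TopHat2 2.0.10, Cufflinks and CASAVA 1.8.2, on mm10. Which annotation was used, and how replicates were handled, is not given in the sources used here. The authors deposited FPKM per gene and library (44349 genes), per the values of the table. Symbols and positions came from GENCODE M21 (GRCm38) for 44022 identifiers and from the deposited table for 327. Another 16 genes with missing values were left out.

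From these values log2(FPKM + 1) was computed, for genes that reached 1 FPKM in 3 or more of 12 libraries. Group means were fitted in limma 3.58.1 (R 4.3.3) with trend and robust moderation, and the Benjamini-Hochberg adjustment ran over all 13896 genes at 0.05. No replicate block was used. Tested on simulated data for the set difference, 60% of changes of size 1 and 96% of changes of size 2 on the log2 scale were called, with 4 false calls. The changes were put into 100 genes per size, all well above the filter in the reserve groups. Noise was independent and normal, and no overall shift was put in. These rates therefore do not carry over to weakly expressed genes or to a shift of all genes. Summaries used Python 3.11.15. Of 915 entries in 37 gene lists, 908 were in the table and 768 were tested. Depth was inferred from the steps of FPKM values and covers counting error only.

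Genes were named by rule. The first part was the 7 largest positive and 7 largest negative set differences with at least 5 FPKM in the highest group. The second was 4 each way among genes called in opposite directions, and the third 2 each way among those called in the same direction. Next came the 2 smallest p of each list with at least 3 calls. Always named were the Hoxb and gate genes, Procr, Mpo, Xist and Npy. The first 3 parts leave out unnamed models, pseudogenes and receptor segments. The rule gave 92 genes, and 12 were added after their values were seen, among them Ddx3y, Eif2s3y, Cdkn1a and Gm11505. Further list members are named as examples, and a few named genes are not reported here. The comparison, the members and the lists were chosen with earlier results of these data known.

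Alternatives were no filter, a pseudocount of 0.1, only genes averaging 5 FPKM or more, quantile normalization, median-ratio scaling, removal of the length trend, coding genes of at least 300 bp, no trend or robust moderation, library weights, all 18 libraries, a replicate block, a minimum change of 1, each library left out, and the 6 Wnt5a libraries as nonreserve set.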

Additional observations from a re-analysis of the deposited data

Results flagged for a closer look

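Each of 91 named genes had a knockout effect that differed between the reserve and nonreserve sets by the test of the set difference itself (limma, Benjamini-Hochberg adjusted p below 0.05), 27 with a positive and 64 with a negative value. Most were named by rules that asked for a call, so their number says nothing beside the 27.3% called over all genes. Values are set differences on the log2(FPKM + 1) scale.

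Among genes called in opposite directions or with very short or segment transcripts, the value was 11.28 for AA465934, 14.00 for Eif5al3-ps, 1.99 for Cited4, 2.13 for Hpn, 1.51 for Gdf3, -11.49 for Trgj4, -3.34 for Tcrg-C4, -4.85 for Tnfsf13os, -3.73 for Xaf1, -2.56 for Cd72, -2.85 for Selplg, -7.44 for Mir130c, -5.82 for Mir763, -5.10 for Snora15 and 4.91 for n-TSaga9.

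Among granule, mast cell, monocyte, cathepsin and nonreserve-driven genes, the value was 5.61 for Mpo, 2.91 for Gm11505, 4.96 for Ctsg, 2.40 for Mcpt8, 2.73 for Slc6a4, 2.14 for Ccl2, 1.46 for Npy, -2.09 for Il4, -2.30 for Chil3, -2.54 for S100a9, -2.03 for Lyz2, -2.01 for Ccr2 and -3.77 for Ctsh.

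Among stem cell, progenitor, gate and Hox genes, the value was -3.17 for Procr, -2.81 for Hlf, -1.82 for Meis1, -3.70 for Ly6a, -0.83 for Kit, -2.76 for Cd34, -2.37 for Flt3, -3.05 for Cd27, -2.94 for Hoxa9, -2.15 for Hoxa10, -1.33 for Hoxb5os, 0.96 for Aldh1a1, -1.73 for Tgif1, -3.03 for Emcn, -1.08 for Pecam1 and -1.30 for Nfe2.

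Among interferon, MHC and lymphoid genes, the value was -3.07 for Oasl2, -3.85 for H2-Aa, -1.71 for H2-DMb1, -1.21 for H2-K1, -1.29 for Psmb8, -1.76 for Cd79a, -1.86 for Igll1, -2.27 for Lck, -2.41 for Trbc2 and -1.94 for Tcf7.

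Among ribosomal, mitochondrial, chaperone and erythroid genes, the value was 1.30 for Rps2, 1.0 for Rpl34, 1.05 for Cox6a1, 1.05 for Cox7c, 0.84 for mt-Nd2, 0.74 for mt-Nd6, 1.12 for Hspe1, 0.84 for Bag3, 1.19 for Blvrb and 1.30 for Aqp1.

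Among the other genes, the value was -1.03 for Afp, -0.97 for Bmi1, -1.35 for Camk2d, 0.73 for Cdkn1a, -1.54 for Cited2, 1.21 for Daam1, -2.29 for Dusp1, -2.64 for Egr1, -0.98 for Eif2s3y, -1.23 for Hmox2, -1.76 for Kif20a, -1.21 for Kif23, -2.58 for Ldhb, -2.14 for Lfng, -1.12 for Mcm6, -1.72 for Mfng, -2.55 for Ncoa4, -0.69 for Rfc2, -1.33 for Rnf2, -1.80 for Sesn1, -1.50 for Slc2a1, -1.68 for Smad2, -1.50 for Smad4, -2.13 for Trf, -1.49 for Wls, 1.95 for Xist and -1.58 for Xpc.

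The calls of Cdkn1a, Eif2s3y and mt-Nd6 ended when any 1 of several libraries was left out (over all 12 such fits, values of 0.52 to 0.87 for Cdkn1a, -1.21 to -0.76 for Eif2s3y and 0.60 to 0.90 for mt-Nd6). With median-ratio scaling the calls of Eif2s3y (-0.68, adjusted p = 0.136) and Rfc2 (-0.38, adjusted p = 0.0623) ended, as did those of Kit and Bmi1.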

How the results depend on the processing

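The table holds FPKM and no counts, 3 libraries per group limit the precision, and 1 confounded set of libraries stands for each label. The total of called set differences stayed within 1.5 times of 3788 in all settings except a minimum change of 1, which left 144 (11 positive and 133 negative). That setting also left 197 reserve calls, 7 nonreserve calls and 2 genes in opposite directions. The positive and negative counts were 1905 and 1732 with median-ratio scaling, 1785 and 1689 with quantile normalization and 1768 and 1702 with the length trend removed. These settings move the median of all genes from -0.22 to 0.03, 0.05 and 0.01. The 264 nonreserve calls became 397 with all 18 libraries in the fit, 1213 with library weights (whose estimation stopped before it converged) and 130 with no filter. The 72 genes in opposite directions became 126, 444 and 24 in the same settings.

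Leaving out 1 library gave 2811 to 4390 set differences (705 to 1110 positive, 2106 to 3280 negative), 3987 to 5405 reserve calls, 78 to 419 nonreserve calls and 18 to 125 genes in opposite directions. The nonreserve calls were 78, 93 and 124 without WT replicate 3, 1 or 2, 111 and 126 without KO Ctrl replicate 2 or 3, 170 without KO Reserve replicate 2 and 419 without WT Reserve replicate 2, the library that stood apart. The cause of these shifts was not tested.

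With replicate number as a block, 3485 set differences, 5079 reserve calls, 162 nonreserve calls and 47 genes in opposite directions were called. No clear pairing by equal numbers was seen: of 18 same-number correlations of deviations from the group means, 1 exceeded 0.1, and they ran from -0.0894 to 0.105. Deviations within groups of 3 libraries cannot exclude a shared animal or batch.

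Among single genes, signs changed only for genes without a called set difference in the 12 libraries. Aspm was at -0.0713 with a pseudocount of 0.1 and ran from -0.0737 to 0.125 without 1 library. Cpa3 was at 0.40 with the Wnt5a libraries as nonreserve set, 0.0235 with library weights, 0.0215 with median-ratio scaling, 1.23 with a pseudocount of 0.1 and 0.015 with quantile normalization, and ran from -0.509 to 0.00345 without 1 library. With the Wnt5a libraries, Lgals3 (-1.18, adjusted p = 0.00862), Tyrobp (-1.55, adjusted p = 0.000639) and Vangl1 (0.77, adjusted p = 0.0233) were called with the opposite sign, and Aspm was called at 0.82 (adjusted p = 0.0168).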
